A study of Arabis alpina with 2 samples.

Results

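The sites described here are single-base variants that both sequenced libraries of the study listed at the same position with the same base, at an allele frequency well away from 0.5 and from 1, and at ordinary depth. The allele frequency is the share of reads at a site that carry the base differing from the reference assembly, called the alternative base below. A site was taken when its allele frequency lay from 0.1 to 0.38 in both libraries (the low class) or from 0.62 to 0.88 in both (the high class), with a coverage of 10 to 200 reads in both, on chromosomes 1 to 8. This gave 1182 sites, 1023 low and 159 high, out of 9753 shared sites in all and 7327 shared sites within the same coverage limits on the chromosomes. The measured frequencies and coverages of both libraries chose the sites, so the sites were selected on them, and class sizes and frequency levels are descriptions that carry no test.

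The study sequenced genomic DNA from Arabis alpina flower buds to map a mutation in this perennial crucifer. One library came from eop055 BC1F2 plants: a mutant obtained by mutagenesis of pep1-1, backcrossed to pep1-1 and selfed, with plants picked for the mutant phenotype and pooled. The other came from the progenitor pep1-1, which had not been through that mutagenesis. All plants had the Pajares background, carried the pep1-1 mutation in PERPETUAL FLOWERING 1, a floral repressor related to FLOWERING LOCUS C of Arabidopsis, and were grown in long days. Each group had 1 library with no replicate, so values describe these 2 libraries, and the labels do not say how many plants went into each. Wilson 95% intervals on shares and frequencies cover counting error only, and sites that lie next to each other are not independent. Positions are those of the authors' assembly, counted from the start of each chromosome; the deposited workbook is marked V3.6, with no assembly named beside that mark, and no gene or sequence is assigned to the positions.

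Plant genomes hold many duplicated genes and repeats. Where an assembly keeps copies of such a sequence as a single stretch, reads of all copies align there, coverage rises with the number of copies, and a base that differs between copies is listed as a variant whose frequency follows the share of copies that carry it. Such a variant does not segregate, because every plant carries all the copies, whereas an induced mutation in a backcrossed and selfed pool does. A low frequency in few reads can also come from damaged bases, sequencing errors or misplaced reads, and oxidised guanine, read as thymine, is a known source of G-to-T changes and, on the opposite strand, C-to-A changes. Which of these applies to any site below was not tested.

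Depth was judged against the 770 shared sites on the same chromosomes that were near-fixed, at 0.9 or more, in both libraries. Their median coverage was 61 reads for the pool and 60 for the progenitor, and these depths serve below as the unit, called the near-fixed depth. The 3434 shared sites of even frequency, between 0.4 and 0.6 in both libraries, had median coverages of 126 and 129 reads. At those even-frequency sites the alternative reads came to a median of 1.00 near-fixed depth in the pool and 1.03 for the progenitor, and the reference reads to 1.05 and 1.08.

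The low class fell into 3 groups by coverage, and the high class lay mainly at the deep end. The median coverage of the low class was 78 reads in the pool, with an interquartile range of 37 to 103, and 66 for the progenitor (30 to 101). That of the high class was 161 reads (75.5 to 180) and 145 reads (78.5 to 185). A class median describes the low class poorly, because its distribution of mean coverage over both libraries had separate peaks: 376 sites lay from 20 to under 40 reads, 61 from 60 to under 80, 229 from 80 to under 100, 18 from 140 to under 160 and 63 from 160 to under 180. Limits set at 60 and 140 reads after seeing this distribution divide the sites below into thin, middle and deep ones. The low class held 468 thin (45.7%), 443 middle (43.3%) and 112 deep sites (10.9%). The high class held 22 thin (13.8%), 53 middle (33.3%) and 84 deep sites (52.8%).

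**Figure D1:**
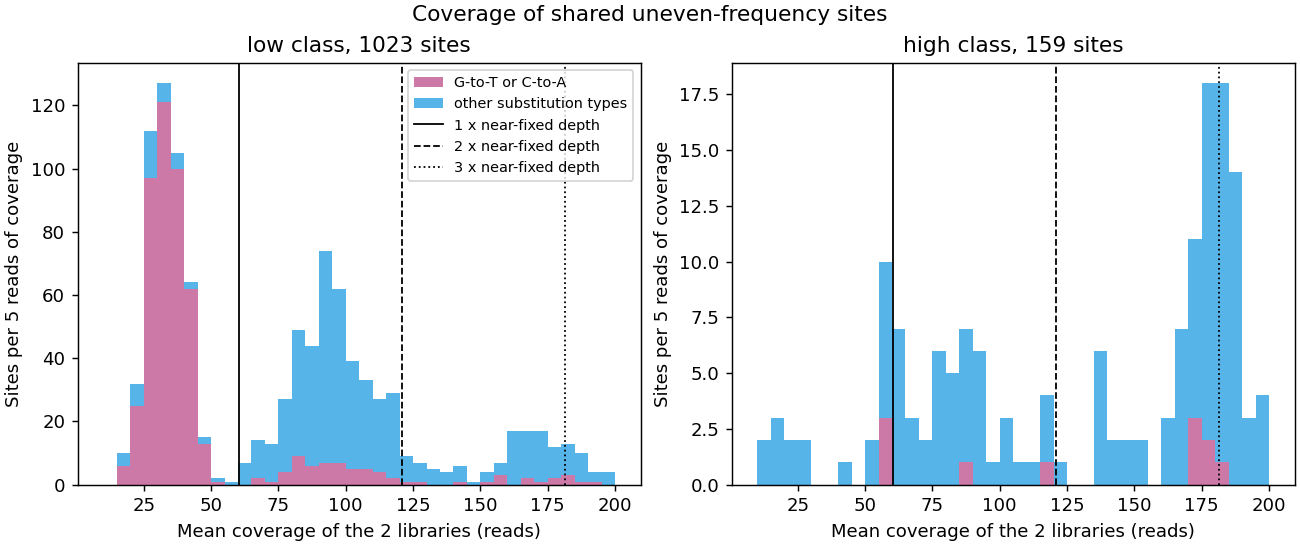
Number of sites (y axis) against the mean coverage of both libraries in reads (x axis, bins of 5 reads) for the low class (left) and the high class (right); colours separate G-to-T and C-to-A changes from the rest, and vertical lines mark 1, 2 and 3 times the near-fixed depth. The low class has peaks below 1, between 1 and 2 and near 3 times that depth, the first made almost wholly of G-to-T and C-to-A changes, and 84 of the 159 high sites have a mean coverage of 140 reads or more.

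At the deep sites, whose depth and balance the limits confine, the median reads of both bases lay near whole multiples of the near-fixed depth. The 112 deep low sites had a median allele frequency of 0.312 in the pool, with quartiles of 0.288 and 0.336, and 0.309 for the progenitor (0.277 and 0.337). Their alternative reads came to a median of 0.90 near-fixed depth in the pool (0.79 to 1.02) and 0.88 for the progenitor (0.73 to 0.97). Their reference reads came to 2 units (1.84 to 2.16) and 1.93 (1.77 to 2.12). At the median the deep low sites thus carried somewhat under 1 unit of alternative and about 2 units of reference reads in each library. The frequency and coverage limits confine this balance, although they would also have admitted frequencies down to 0.1 at the same depth.

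The 84 deep high sites showed the opposite balance. Their median allele frequency was 0.665 in the pool (0.646 to 0.679) and 0.680 for the progenitor (0.660 to 0.710). Alternative reads came to a median of 1.94 near-fixed depths in the pool (1.83 to 2.07) and 2.06 for the progenitor (1.93 to 2.17), and reference reads to 0.98 (0.92 to 1.04) and 0.93 (0.83 to 1.04). On the same depth unit this is about 2 units of alternative beside 1 unit of reference reads.

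The coverage limit of 200 reads runs close above the deep sites and divides a continuous set. A further 163 sites met the low and 212 the high frequency rule but exceeded 200 reads in at least 1 library, with median coverages of 206 and 210 reads for the low ones and 210 and 230.5 reads for the high ones. Of these, 138 low and 151 high sites stayed at or below 300 reads in both libraries. T12006802C on chromosome 1, at 177 and 201 reads, lay just outside, and G6600287A on chromosome 1, at 179 and 200 reads, was the first of 9 sites at the limit. The lower limit of 10 reads removed 4 low and 5 high sites, among them C1990990A on chromosome 1 with 27 and 9 reads, while C3433129A on chromosome 5, with 35 and 10 reads, was the first of 5 kept at the limit.

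The middle low sites had a full unit of reference reads but less than a unit of alternative reads. Their median coverage was 95 reads in the pool (86 to 108) and 94 for the progenitor (79.5 to 104.5), and their median allele frequency 0.308 and 0.303. Reference reads came to a median of 1.10 near-fixed depths in the pool (0.98 to 1.21) and 1.07 for the progenitor (0.95 to 1.22). Alternative reads came to 0.49 (0.38 to 0.59) and 0.47 (0.37 to 0.58). This is neither the balance of the even-frequency sites, with about 1 unit of each base, nor that of the deep sites. The frequency rule sets the balance, so that a site at this depth could enter only with few alternative reads.

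Even-frequency sites lay near many middle low sites and near many deep high sites. Of 443 middle low sites, 286 (64.6%, 60 to 68.9%) had an even-frequency shared site within 1000 bases, against 25 of 112 deep low sites (22.3%, 15.6 to 30.9%) and 2 of 468 thin low sites (0.427%, 0.117 to 1.54%). The count was 59 of 84 at deep high sites (70.2%, 59.8 to 79%) and 30 of 75 at the other high sites (40%, 29.7 to 51.3%). The 1189 even-frequency sites beside the middle low sites had median coverages of 125 and 131 reads, against 126 and 128 reads at the other 2245. Their alternative reads came to 0.98 near-fixed depth in the pool and 1.03 for the progenitor, against 1.00 and 1.05 at the others. The even-frequency neighbours of the middle low sites were thus about as deep as other even-frequency sites, while the frequency rule held the middle low sites to fewer alternative reads. Even-frequency sites themselves had another such site within 1000 bases at 3274 of 3434 (95.3%). A shared site above 200 reads in at least 1 library lay within 1000 bases of 72 of 84 deep high sites (85.7%). The count was 74 of 112 at deep low (66.1%), 19 of 443 at middle low (4.29%) and 123 of 3434 at even-frequency sites (3.58%). These neighbour counts are descriptions with no test.

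The thin and middle high sites had few reference reads. The 53 middle high sites had a median coverage of 84 reads for the pool and 87 for the progenitor, with alternative reads at 1.07 and 1.15 near-fixed depths and reference reads at 0.38 and 0.32. The 22 thin high sites had 47.5 and 52.5 reads, with 0.59 and 0.68 units of alternative and 0.14 and 0.14 units of reference reads. Their allele frequencies were higher than those of the deep high sites, with medians of 0.754 and 0.782 for the middle and 0.791 and 0.760 for the thin sites. Of these 75 sites together, 27 (36.0%, 26.1 to 47.3%) had a near-fixed shared site within 1000 bases, against 5 of 84 deep high sites (5.95%, 2.57 to 13.2%).

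**Figure D2:**
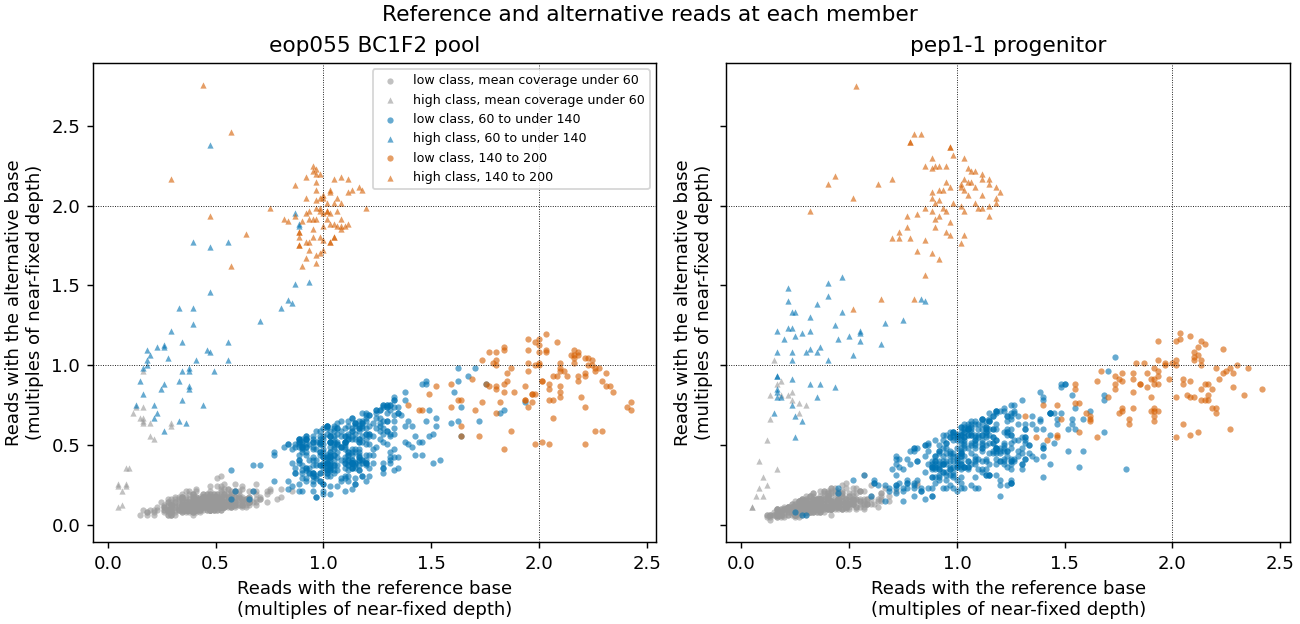
Reads with the alternative base (y axis) against reads with the reference base (x axis) at each site, both as multiples of the near-fixed depth, in the pool (left) and the progenitor (right); circles are low and triangles high sites, coloured by mean coverage in reads, and dotted lines mark 1 and 2 units. Deep low sites gather near 2 reference units and 1 alternative unit, deep high sites near 1 and 2, middle low sites near 1 reference unit and 0.5 alternative units, and thin low sites lie mostly below 1 unit of either base.

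The thin low sites stood apart from the other shared classes in substitution type and position. Of 468, 425 (90.8%, 87.9 to 93.1%) were G-to-T or C-to-A changes: 51.7% were G-to-T and 39.1% C-to-A. These 2 types made up 12.2% of middle low sites (9.46 to 15.6%), 13.4% of deep low sites (8.29 to 20.9%), 6.92% of high sites (3.91 to 12%), 9.96% of even-frequency sites (9 to 11%) and 2.73% of near-fixed sites (1.79 to 4.13%). Transitions, which exchange purine for purine or pyrimidine for pyrimidine, made up 5.34% of thin low sites, against 58.2% of middle low, 60.7% of deep low, 59.7% of high and 60.6% of even-frequency sites. Among these shared classes the thin low sites thus differed in spectrum. The middle low, deep low and high sites had transition shares near that of the even-frequency sites. The spectrum was not particular to shared sites. Among all low-frequency sites of 10 to under 60 reads in each list, G-to-T and C-to-A changes were also the more common. They numbered 1843 against 559 of other types in the pool, and 1864 against 740 for the progenitor.

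Changes from G to A and, on the opposite strand, from C to T are those that alkylating mutagens mainly cause. They made up 18.2% of low sites (15.9 to 20.7%) and 35.2% of high sites (28.2 to 42.9%), against 29.5% of even-frequency sites (28 to 31%) and 81.9% of near-fixed sites (79.1 to 84.5%). Within the low class the share was 5.13% at thin, 27.8% at middle and 34.8% at deep sites.

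**Figure D3:**
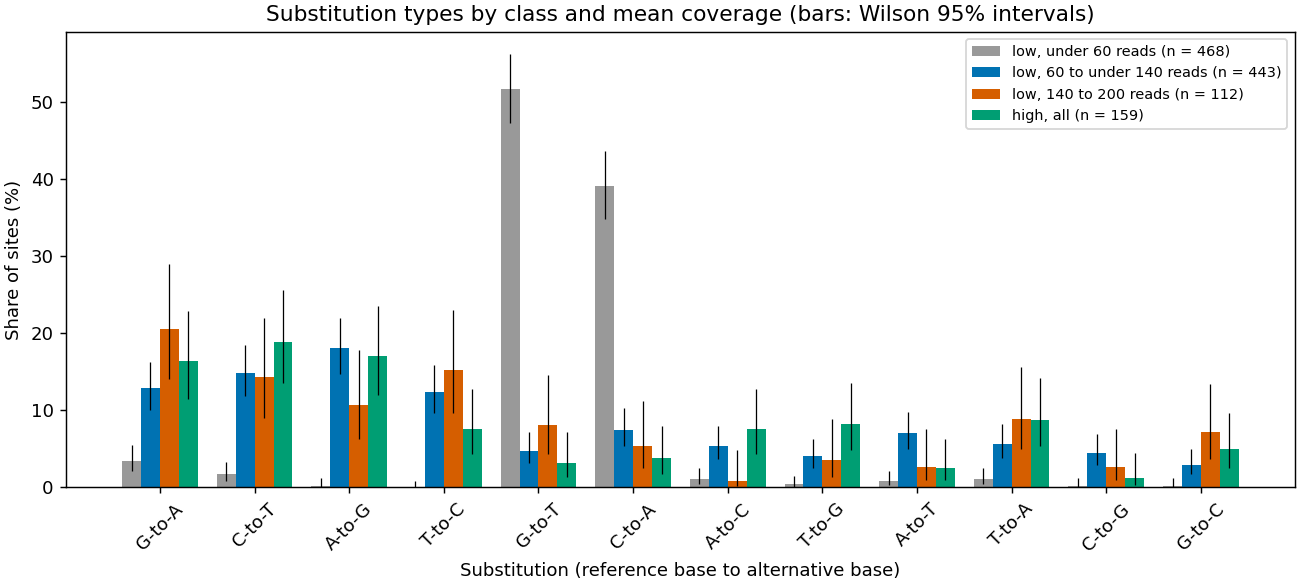
Share of sites in percent (y axis) with each of the 12 substitutions (x axis), for thin, middle and deep low sites and for all high sites; bars carry Wilson 95% intervals. G-to-T, at 51.7%, and C-to-A, at 39.1%, dominate the low sites under 60 reads and stay at 8.04% or below in the other sets.

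Thin low sites had few alternative reads and low variant quality. The limit of 60 reads fixes their depth below the near-fixed one: their median coverage was 36 reads in the pool (31 to 42) and 29 for the progenitor (23 to 36). Alternative reads numbered a median of 8 in the pool (7 to 10) and 7 for the progenitor (6 to 9), and reference reads came to 0.46 and 0.35 near-fixed depth. Median variant quality, the caller's Phred-scaled score, was 23.5 and 19.5, and 375 of the 468 sites (80.1%, 76.3 to 83.5%) were under 25 in at least 1 library. The share under 25 was 32.1% at middle low, 14.3% at deep low and 15.1% at high sites. Coverage, variant quality and substitution type moved together in the thin low sites, and the part of each was not tested.

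How often such sites recurred was counted from each list. Of 1843 G-to-T and C-to-A sites in the pool list on the chromosomes with a low frequency and 10 to under 60 reads, 542 (29.4%, 27.4 to 31.5%) were listed with the same base, at any frequency, for the progenitor. Of 559 such sites of other types, 71 (12.7%, 10.2 to 15.7%) were. The other types in the pool list can include mutations induced in eop055, which the progenitor does not carry. How far such mutations lower the pool's shares of other types, here and at 60 reads or more, was not tested. From the progenitor's side the shares were 444 of 1864 (23.8%, 21.9 to 25.8%) and 101 of 740 (13.6%, 11.4 to 16.3%). At 60 reads or more the types were closer, 67.4% of G-to-T and C-to-A sites (60.5 to 73.6%) against 63.6% of others (61.0 to 66.2%) in the pool, and 77.4% (70.7 to 82.9%) against 79.4% (77.0 to 81.6%) in the progenitor. These shares count listed sites only, and the reads behind an unlisted site are unknown.

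Positions divided the low class in the same way. Within 1000 bases, 488 of 1023 low sites (47.7%, 44.7 to 50.8%) and 108 of 159 high sites (67.9%, 60.3 to 74.7%) had another site of their class. The corresponding shares were 95.3% of even-frequency sites (94.6 to 96.0%) and 18.4% of near-fixed sites (15.9 to 21.3%). Among low sites the share was 1.28% at thin (0.589 to 2.77%), 84.7% at middle (81.0 to 87.7%) and 95.5% at deep sites (90 to 98.1%), so that nearly all thin sites stood alone and nearly all deep sites had company. Without the G-to-T and C-to-A sites, 412 of 529 low sites had such a neighbour (77.9%, 74.2 to 81.2%), and among the G-to-T and C-to-A low sites alone 26 of 494 did (5.26%, 3.62 to 7.60%).

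Sites of either class joined by gaps of at most 1000 bases form a run. Runs of 3 or more sites numbered 91 and held 479 of the 1182 sites (40.5%). Their median length was 294 bases, and the longest spanned 5430 bases. The median distance between neighbouring sites, taken within each run, had a median of 37 bases over the runs. Of these runs, 71 were all low, 10 all high and 10 mixed, with low sites far the more common in the whole set. Of 452 neighbouring pairs within 1000 bases, 353 were both low, 80 both high and 19 one of each. By coverage, 61 all-low, 4 all-high and 3 mixed runs were of middle depth. Among deep runs, where both classes were common, 10 were all low (86 sites), 6 all high (50 sites) and 6 mixed (39 sites). In runs of a single class the spread between the lowest and the highest allele frequency had a median of 0.0785 in the pool and 0.0745 for the progenitor.

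The largest run lay on chromosome 7 from 20260553 to 20265982 and held 23 low sites. Coverage ran from 147 to 199 reads in the pool and from 114 to 198 in the progenitor, and allele frequency from 0.199 to 0.366 (median 0.305) and from 0.260 to 0.377 (median 0.324). At its ends lay A20260553C, with 60 of 164 reads in the pool and 43 of 114 in the progenitor, and G20265982T, with 57 of 190 and 55 of 170. G20261298A was the site next to the first, with 32 of 155 and 47 of 175 reads, and T20265924A the site before the last, with 55 of 195 and 61 of 173. The frequency intervals of both libraries overlapped at each of these 4 sites. Inside the run lay 14 further shared sites above 200 reads in at least 1 library.

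A second run on chromosome 7, from 20250464 to 20252535, held 18 low sites at the same level. Its median coverage was 175.5 reads for the pool and 174.5 for the progenitor, and its median allele frequency 0.310 and 0.299. Its outer sites stood lower in the pool than in the progenitor: C20250464T had 53 of 195 against 71 of 196 reads, G20250533T 48 of 173 against 55 of 160, G20252070C 48 of 174 against 59 of 174 and G20252535T 49 of 177 against 72 of 194. Over the run, however, 9 sites were higher and 9 lower in the pool. The 1 Mb of chromosome 7 from 20000001 to 21000000 held 59 low and 0 high sites, more than any other 1 Mb bin, with median coverages of 179 and 169 reads.

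The largest high run lay on chromosome 2 from 14071008 to 14072277 and held 22 high sites and no low one. Coverage ran from 158 to 200 reads in each library. Allele frequency ran from 0.628 to 0.704 in the pool (median 0.662) and from 0.635 to 0.771 in the progenitor (median 0.693), and 18 of the 22 sites were lower in the pool. T14071008A had 128 of 191 reads in the pool and 114 of 172 in the progenitor, T14071024A 128 of 197 and 107 of 158, T14072245A 117 of 174 and 124 of 191, and T14072277C 120 of 180 and 125 of 197. These outer sites stood close to each other in both libraries. Inside the run, T14071407G had a frequency of 0.629 in the pool and 0.771 for the progenitor. It was not called (Fisher's exact test, Benjamini-Hochberg adjusted p = 0.122). The site was picked for mention because of its difference, so nothing is read from that p. Neighbouring sites share reads, so the 18 sites do not count as separate observations.

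In some mixed runs the read balances of deep low and deep high sites occurred side by side. The run on chromosome 2 from 18567718 to 18569184 held 5 low and 6 high sites and changed class 4 times along its length. Its low sites had median frequencies of 0.314 in the pool and 0.337 for the progenitor, with 0.90 and 1.02 units of alternative and 1.97 and 2.02 units of reference reads. Its high sites had 0.640 and 0.653, with 1.67 and 1.83 units of alternative and 0.95 and 0.90 units of reference reads. A18567718G and A18568426C opened the run as high sites, with 114 of 179 and 127 of 195 reads in the pool and 100 of 155 and 134 of 187 in the progenitor. T18569098A, with 78 of 121 and 76 of 116 reads, and A18569184T, with 46 of 73 and 41 of 56, closed it as high sites of falling depth. The variant quality of A18569184T was low, 3.2 in the pool and 5.8 for the progenitor. Not every mixed run had these balances. On chromosome 7 from 33219175 to 33219760, high sites had medians of 0.66 and 0.82 units of alternative reads. Their reference reads came to 0.16 and 0.22 units.

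The mixed run on chromosome 1 from 12006687 to 12011220 kept its classes apart. Its 7 high sites came first and its 3 low sites last, with 1 change of class. G12006687T and A12006753G, at the high end, had 120 of 185 and 124 of 183 reads in the pool and 115 of 169 and 110 of 167 in the progenitor. C12010400T and C12011220G, at the low end, had 47 of 153 and 46 of 131 reads in the pool and 58 of 174 and 57 of 191 in the progenitor. At C12011220G the coverage in the pool was 0.686 times that in the progenitor, while the frequencies, 0.351 and 0.298, had overlapping intervals.

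**Figure D4:**
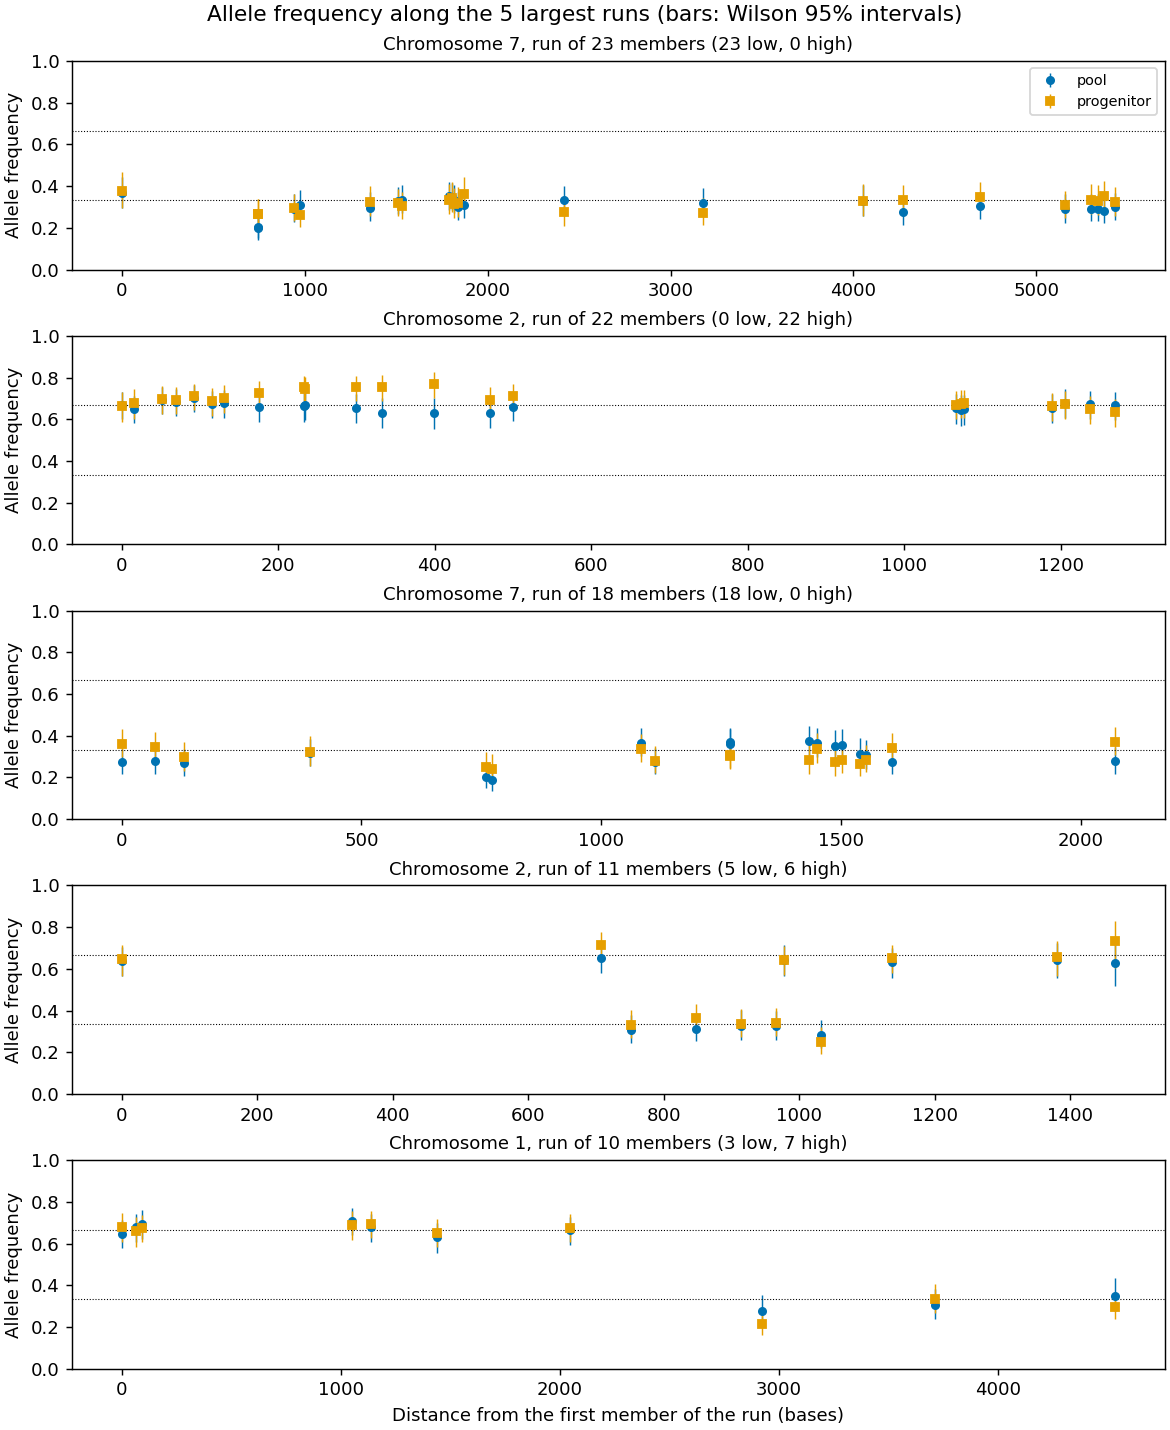
Allele frequency (y axis) with Wilson 95% intervals at each site of the 5 largest runs against the distance in bases from the first site of the run (x axis), with pool as circles and progenitor as squares; dotted lines mark 0.333 and 0.667. The chromosome 7 runs stay near the lower line and the 22-site chromosome 2 run near the upper one, with progenitor values up to 0.771 inside it, and the mixed runs hold sites near both lines.

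The 3 coverage groups were spread differently over the chromosomes. Thin low sites were found on every chromosome in similar number, from 45 on chromosome 2 to 69 on chromosome 8, and occupied 243 bins of 1 Mb with at most 5 in a bin. Middle low sites numbered from 32 on chromosome 1 to 68 on chromosomes 4 and 6 and occupied 107 bins. Deep low sites were concentrated, with 58 of 112 on chromosome 7, 16 on chromosome 2, 12 each on chromosomes 1 and 8, 8 on chromosome 4, 6 on chromosome 5 and 0 on chromosomes 3 and 6. Of 84 deep high sites, 41 lay on chromosome 2 and 24 on chromosome 1, and 32 of them shared a single 1 Mb bin.

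As a share of the shared sites of ordinary depth on each chromosome, the low class ran from 7.45% on chromosome 2 (125 of 1677) and 11.3% on chromosome 8 (135 of 1191) to 22.5% on chromosome 6 (116 of 515) and 26.3% on chromosome 3 (103 of 391). The denominators differed more than the low counts, from 391 shared sites on chromosome 3 to 1677 on chromosome 2 against 99 to 190 low sites. The high class had 54 sites on chromosome 2, 27 on chromosome 1, 26 each on chromosomes 4 and 7, 19 on chromosome 8, 3 on chromosome 5 and 2 each on chromosomes 3 and 6.

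The site with the largest lower-of-2 coverage (the smaller of its coverages in the 2 libraries) was taken for each class and chromosome. Low sites stood at 61 of 198 reads in the pool and 59 of 195 in the progenitor at C12018891T on chromosome 1, 59 of 188 and 69 of 190 at T18568565C on chromosome 2, and 59 of 197 and 68 of 197 at G7779228A on chromosome 4. They stood at 50 of 170 and 36 of 172 at G9179441C on chromosome 5, 65 of 198 and 59 of 200 at A20256284G on chromosome 7, and 52 of 177 and 61 of 179 at T4646423A on chromosome 8. On the chromosomes with no deep low site the values were 54 of 161 and 36 of 111 at A23538367T on chromosome 3, whose mean coverage is just under 140 reads, and 46 of 125 and 53 of 143 at A16830786C on chromosome 6. In each of these 8 sites the frequency lay between 0.209 and 0.371 in both libraries.

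The high sites taken in the same way stood at 129 of 200 and 133 of 198 reads at C6603680T on chromosome 1, 132 of 200 and 142 of 200 at A14071508G on chromosome 2, and 114 of 175 and 122 of 177 at G4348676A on chromosome 4. They stood at 117 of 176 and 135 of 189 at A2007900C on chromosome 6, 116 of 171 and 116 of 171 at C13194354T on chromosome 7, and 128 of 200 and 135 of 192 at T19965455C on chromosome 8. On chromosomes 3 and 5, where high sites were few, the values were 112 of 166 and 85 of 124 at T28968099A and 39 of 61 and 56 of 66 at C15903479T. The last of these had the largest difference in the high class, 0.639 in the pool (0.514 to 0.748) against 0.849 in the progenitor (0.743 to 0.916), with an adjusted p of 0.153 in Fisher's exact test with Benjamini-Hochberg adjustment. It lay in a run that held the 3 high sites of chromosome 5, from 15903420 to 15903483. All 3 were lower in the pool, with a median difference of -0.182, but sites so close are not separate observations.

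The libraries were compared site by site by a two-sided Fisher's exact test of their read counts, with Benjamini-Hochberg adjustment over all 9753 shared sites and a threshold of 0.05. Such a test compares these libraries, not the genotypes, and the rule already required both frequencies to fall in the same class. Over all shared sites 3.21% were called, 0.605% as higher and 2.6% as lower in the pool. Of the 1023 low sites 1 was called and of the 159 high sites 0, with 14 and 7 at an unadjusted p under 0.05, from which nothing is read because the rule used both frequencies. In the same coverage limits, 1002 sites had a frequency in the low range in only 1 library, and 40 of them were called; 351 had one in the high range in only 1 library, and 31 of them were called.

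The called site was A13899419G on chromosome 2. It had 66 of 174 reads in the pool, a frequency of 0.379 (0.311 to 0.453), and 33 of 154 in the progenitor, 0.214 (0.157 to 0.286), with an adjusted p of 0.0385. It belonged to a run of 9 low sites from 13899057 to 13899684, with 5 higher in the pool and 4 lower. Coverage in that run was higher in the pool, with a median of 192 reads against 129, and alternative reads came to 0.98 and 0.67 near-fixed depth. With only the 7327 sites of ordinary depth tested together, its adjusted p was 0.109 and no site of either class was called.

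The difference in frequency between the libraries is bounded by the rule, which admits only sites with both values in 1 window. The absolute difference had a median of 0.0443 in the low and 0.0322 in the high class, against 0.0429 at even-frequency sites, which have the same restriction. At sites in the low or the high range in only 1 library it was 0.108 and 0.123. It was at most 0.05 at 566 of 1023 low sites (55.3%) and 112 of 159 high sites (70.4%), and its largest value was 0.209 in both classes. Within the low class Pearson's correlation across sites was 0.365 and Spearman's 0.368 (n = 1023), and within the high class 0.679 and 0.593 (n = 159). These are descriptions over sites that share libraries and often reads, and the range allowed by the rule narrows them. The Pearson correlation was 0.118 at thin, 0.401 at middle and 0.165 at deep low sites. Among high sites it was 0.296 at thin (n = 22), 0.578 at middle (n = 53) and 0.638 at deep ones (n = 84). Spearman's correlation at these high sites was 0.280, 0.568 and 0.187, so the ranks of deep high sites followed each other only weakly.

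Low frequencies were slightly lower in the pool, and this lay in the thin sites. The median difference, pool minus progenitor, was -0.0082 over the low class, with 577 sites lower, 444 higher and 2 equal. It was -0.0267 at thin sites, where 300 were lower and 166 higher, 0.0009 at middle sites, where 220 were lower and 223 higher, and -0.00175 at deep sites, where 57 were lower and 55 higher. Coverage moved with this: the ratio of pool to progenitor coverage had a median of 1.22 at thin low sites, 1.04 at middle and 1.04 at deep ones, 0.98 at even-frequency sites and 1.01 at near-fixed sites. The part of coverage in the difference was not tested. In the high class the median difference was -0.0128, with 102 sites lower and 54 higher, at a median coverage ratio of 0.99. The 22-site run on chromosome 2 alone gave 18 of the lower and 4 of the higher sites. Of all high sites, 99 (62.3%) lay in runs of 3 or more, so these counts are not of separate observations.

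**Figure D5:**
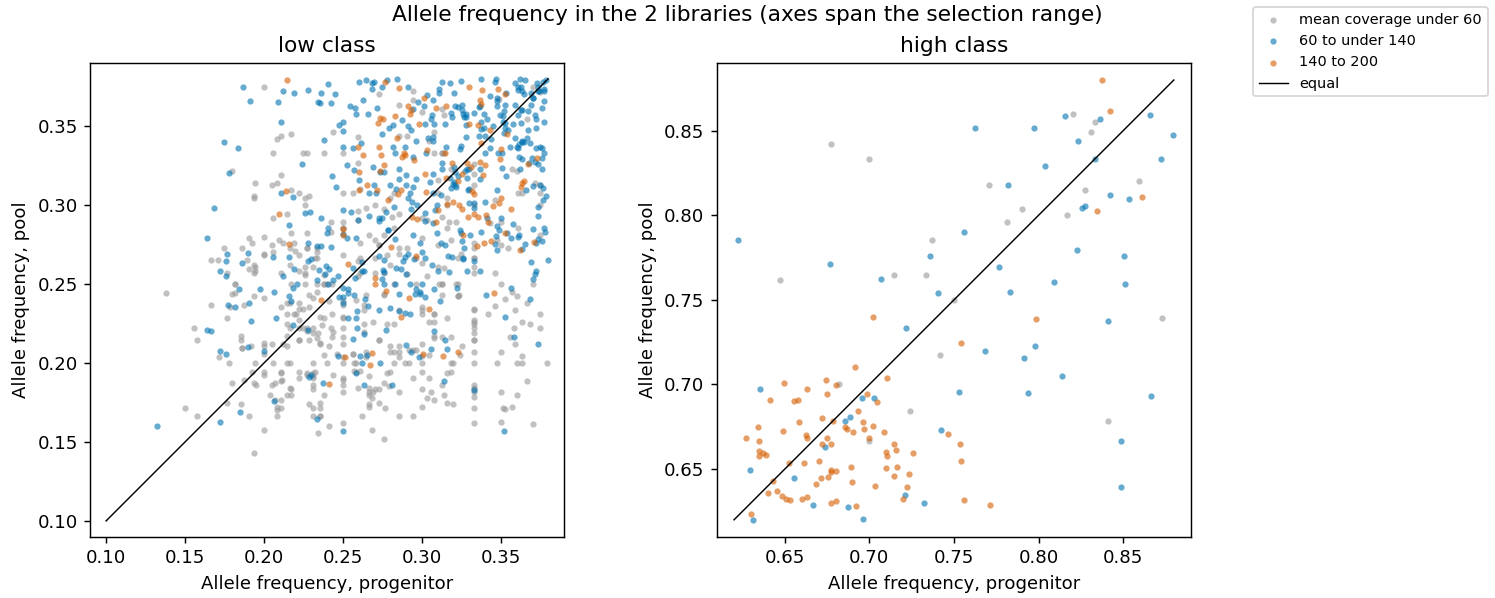
Allele frequency in the pool (y axis) against that in the progenitor (x axis) for the low (left) and high class (right), coloured by mean coverage in reads, with the line of equality; the axes span the ranges that the rule allowed. Thin low sites lie below the line more often than above it (300 against 166), and the other low sites lie about equally on both sides.

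Chromosome 8 was the one on which the pool's own variants stood highest. Sites listed for the pool alone with a G-to-A or C-to-T change, a variant quality of at least 25 and at least 10 reads had a median frequency of 0.833 on chromosome 8 (223 sites) and 0.468 on the other chromosomes (1116 sites). At the uneven shared sites of chromosome 8 the median difference between pool and progenitor was -0.0146 in the low class (interquartile range -0.0534 to 0.0249; 135 sites) and -0.004 in the high class (19 sites). The low-class medians of the other chromosomes ran from -0.0319 on chromosome 3 to 0.009 on chromosome 2. The high-class medians of chromosomes with at least 10 high sites ran from -0.0298 on chromosome 4 to -0.004 on chromosome 8. These are descriptions with no test.

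The coverage ratio of pool to progenitor had an interquartile range of 0.920 to 1.36 in the low and 0.873 to 1.14 in the high class, and of 0.967 to 1.63 at thin low sites. The highest ratios of pool to progenitor coverage were 5.50 at G3437757T and 5 at G3437737A, which lie 20 bases apart on chromosome 2, and 5.20 at G44924209T on chromosome 7. At G3437757T the pool had 31 of 110 and the progenitor 5 of 20 reads, and at G3437737A 25 of 105 and 4 of 21, so that the frequencies stayed close, at 0.282 against 0.250 and 0.238 against 0.191, while the depth changed. The lowest ratios were 0.455 at A21641094C on chromosome 8, a high site with 7 of 10 and 15 of 22 reads, 0.486 at C6242601A on chromosome 6, with 5 of 18 and 10 of 37, and 0.513 at C24609661T on chromosome 8, with 21 of 77 and 49 of 150.

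The frequency limits divide continuous distributions as well. At 0.38 lay 5 tied low sites, the first of them A13957826G on chromosome 2, at 0.38 and 0.347, and just outside lay C24609723A on chromosome 8, at 0.333 and 0.381. The high site nearest to 0.62 was T12486517C on chromosome 4, at 0.62 and 0.631, and just outside lay G28443378A on chromosome 8, at 0.675 and 0.6196. At the upper limit of 0.88 these were A19379142T on chromosome 2, at 0.88 and 0.838, and outside it G24370099A on chromosome 2, at 0.849 and 0.884. The lowest frequency of any low site was 0.133, at A13040016G on chromosome 3, and no shared site of ordinary depth with a frequency up to 0.38 in both libraries lay below 0.1.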

How the data were processed

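The authors deposited a list of single-base variants for each of the 2 libraries, and the genotype named by each sheet tied it to a sample. The submitters' processing notes name Bowtie2, SAMtools and DESeq without roles; versions and filters are not stated there, and the deposited workbook carries only the version mark V3.6. In the deposited lists the headers appear exchanged: the column quality holds whole numbers, used here as the alternative read count, and the column reads a variant quality score. The deposited allele frequency is a fraction. Coverage was the count over the fraction, rounded, which gave the listed frequency within 5e-05 at 14923 of 14923 pool and 14029 of 14029 progenitor sites. The median coverage was 106 and 100 reads. The sites, groupings and named sites were chosen with earlier results of these data known. Named were the first and last sites of the 5 largest runs, the extremes of coverage ratio and the sites next to each limit. Called sites, and the site of each class and chromosome with the largest lower-of-2 coverage (ties: lowest position), were also named. T14071407G was named besides these, for its difference between the libraries. Fisher's exact tests used scipy 1.17.1 and were tested on simulated data. The simulated sites were deeper than the thin sites and had larger shifts than the rule admits. Power at the sites described here was therefore not tested. Other values are descriptions, computed with Python 3.11.15, numpy 2.4.6 and pandas 2.3.3, and drawn with matplotlib 3.10.9. Alternatives changed the coverage and frequency limits, variant quality, depth unit, neighbour distance, 1 site per run and the sites tested together. The files carry no molecular identifiers, so intervals cover counting error only.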

Additional observations from a re-analysis of the deposited data

How the results depend on the processing

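Of 195 values under 11 alternatives, 121 stayed within the interval of the main value (for counts, within 1.5 times it), 73 moved and 1 lost its call. With a variant quality of at least 25 in both libraries, 490 low sites remained, with median coverages of 96 and 96 reads, 0.50 and 0.48 units of alternative and 1.08 and 1.07 units of reference reads, a median absolute difference of 0.0382, 66.9% with a neighbour, 25.9% G-to-T or C-to-A, a coverage ratio of 1.05 and a median difference of 0.0016 on chromosome 4. With a coverage maximum of 150, low medians were 52 and 46 reads, alternative 0.21 and 0.20, reference 0.67 and 0.58, with 40.8% neighbours, 52.9% G-to-T or C-to-A and 0 called; 71 high sites had 72 and 72 reads, alternative 0.90 and 0.93, reference 0.26 and 0.23, a median absolute difference of 0.0399, 45.1% neighbours and a ratio of 0.94. A coverage minimum of 20 gave 0.35 alternative units in the pool and 51.2% neighbours for low sites. Narrower bounds (0.15 to 0.35 and 0.65 to 0.85) gave low medians of 48 and 42 reads, alternative 0.20 and 0.18, reference 0.62 and 0.53, 35.5% neighbours, 56.1% G-to-T or C-to-A, 0 called, and 93 high sites. Wider bounds (0.1 to 0.4 and 0.6 to 0.9) gave 85 and 77 reads, alternative 0.39 and 0.35, reference 0.97 in the pool, 53.5% neighbours, 43.8% G-to-T or C-to-A, 3 called, and 242 high sites. Testing only sites of ordinary depth called 0 low sites. Neighbours within 100 bases were 38.4% of low and 58.5% of high sites, and within 10000 bases 51.2% of low sites. With 1 site per run, coverage medians were 41 and 35 reads for low and 95 and 89 for high sites, and 68.2% of low sites were G-to-T or C-to-A. Without G-to-T and C-to-A sites, an alternative chosen after seeing the data, 529 low sites had 97 and 98 reads, alternative 0.50 and 0.49, reference 1.11 and 1.10, a median absolute difference of 0.039, 77.9% neighbours and a ratio of 1.04. Class medians depend on the limits because these change how many thin, middle and deep sites enter; other causes were not tested. Halving the even-frequency depth as the unit moved no class value. No paired analysis was possible because the libraries, 1 per group, have no replicates, and none could therefore be left out.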
